A study of Mus musculus with 15 samples.

Results

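Group 2 innate lymphoid cells (ILC2s) sorted from the gut lamina propria (LP) were compared with ILC2 precursors (ILC2p) sorted from the bone marrow (BM), all C57BL/6 cells labelled Tgfbr2-/-, in which *Tgfbr2* was deleted through tamoxifen. The comparison uses 7 of the 15 libraries of the series, namely the 3 labelled ILC2 and Tgfbr2-/- and the 4 labelled ILC2p and Tgfbr2-/-, and every gene in the files. The gene encodes TβR2, the receptor chain that binds TGF-β. Both groups carry the floxed allele and ER-Cre, a recombinase that tamoxifen activates, and tamoxifen was given for 5 days. The methods give an age of 8 to 12 weeks for mice at the start of treatment. The promoter of ER-Cre is not given in the sources used here. The controls, called WT, carry the same alleles and were given sunflower oil. They contribute 4 ILC2 and 4 ILC2p libraries and enter the last comparison. The methods name different mouse models for the cell types. LP ILC2s (CD45+Lin-CD127+Sca-1+CD25+KLRG1+) came from the treated mice themselves, in which deletion was not limited to ILC2s by design. ILC2p (CD45.2+Lin-CD127+α4β7+CD25+) came from mixed BM chimeras, that is irradiated CD45.1 hosts that had received CD45.2 marrow together with normal CD45.1 marrow. The methods describe chimeras whose marrow donors were treated before transfer and others whose hosts were treated after it. The name they give the chimeras sorted for these libraries is the one used for treated donors. The antibodies against lineage (Lin) markers included those against CD3, CD5, B220, CD11b, CD11c, Gr-1 and CD23. By the methods, treated mice were killed the day after the last dose, whereas chimeras were analyzed weeks after transfer. The methods also describe enzymatic digestion for gut tissue, whereas marrow was flushed from bones. The cell type therefore cannot be told apart from tissue, cell isolation, sort gate, mouse model, time since tamoxifen and library series. The labels do not say whether libraries of a group came from separate mice, so p-values measure the spread between these libraries, which may be technical.

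Each cell type was sequenced in 2 experiments. Total counts on genes were 29340187 and 32114265 in ILC2 replicates 1 and 2 of experiment 1 and 12167066 in the ILC2 library of experiment 2. They were 11959679 and 10957021 in the ILC2p libraries of experiment 1 and 24181422 and 31993992 in those of experiment 2. Values of single libraries below always follow this order, with 3 ILC2 values before 4 ILC2p values. Levels are CPM, a gene's count as a share of its library's count after TMM scaling, which sets libraries to a common level by assuming that most genes do not differ. A gene was called when its adjusted p (edgeR's quasi-likelihood test, Benjamini-Hochberg) was under 0.1 and its fold change over 1.5. A positive log2 fold change means a higher level in ILC2s.

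ILC2s lack antigen receptors and answer epithelial alarm signals such as IL-33 and IL-25 with type 2 cytokines. They arise in the BM from common lymphoid progenitors by way of precursors that switch on GATA3, and they settle in mucosal tissue, where they gain KLRG1. Their identity rests on GATA3 and RORα, and the IL-33 receptor ST2 is the product of *Il1rl1*. Neutrophils, in contrast, are short-lived phagocytes that mature in the BM in large numbers and fill their granules with proteins such as myeloperoxidase, elastase, lactoferrin and cathelicidin while still there.

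The marker genes fixed for the sort were present in both groups. *Il7r* (CD127) was at 378, 430 and 566 CPM in ILC2s and at 284, 369, 467 and 452 CPM in ILC2p, with overlapping groups and an adjusted p of 0.937. *Il2ra* (CD25) and *Ly6a* (Sca-1) also overlapped between the groups and were not called, with adjusted p-values of 0.732 and 0.992. *Klrg1*, which the ILC2 gate required and the ILC2p gate did not, was at 686, 679 and 774 CPM in ILC2s and at 79.3, 156, 93.8 and 70.2 CPM in ILC2p. Every ILC2 library was above every ILC2p library, by 2.73 ± 0.38 (SE) on the log2 scale (adjusted p = 0.00672), a difference that the gate itself selects. *Itga4* and *Itgb7* encode the α4β7 integrin of the ILC2p gate, and neither was called higher in ILC2p with TMM. *Itga4* was not called (log2 -0.60, adjusted p = 0.711, and -1.75 when lymphoid genes set the scale), and *Itgb7* was higher in ILC2s at 1771, 1641 and 1327 CPM against 510, 776, 653 and 896 CPM (log2 1.06 ± 0.25, adjusted p = 0.0284). That call was lost without ILC2 experiment 1 replicate 1 (adjusted p = 0.114), and its direction turned when lymphoid genes set the scale (log2 -0.10).

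The deleted gene did not separate the cell types. *Tgfbr2* was at 206, 184 and 96.6 CPM in Tgfbr2-/- ILC2s and at 87.4, 130, 30.9 and 219 CPM in Tgfbr2-/- ILC2p. The ranges overlapped, and the log2 difference of 0.39 ± 0.67 was not called (adjusted p = 0.909). The counts cover the whole transcript, so exons outside the floxed part are counted in cells that have lost the protein, and the level is no check of the deletion. WT ILC2s held 150 to 262 CPM and WT ILC2p 0.714 to 233 CPM. *Tgfbr1*, the partner chain that carries the signal onward, was at 11.8, 12.1 and 22.1 CPM in ILC2s and at 35.3, 0.311, 31.3 and 0.116 CPM in ILC2p. A pair of ILC2p libraries were high and the other pair near 0, so the log2 difference of -0.22 ± 1.84 had a wide error (adjusted p = 0.982).

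Such gaps were common in the Tgfbr2-/- ILC2p libraries. Among genes whose median over the remaining libraries reached 50 CPM, 14.8%, 16.2%, 3.83% and 10.8% were under 1 CPM in the 4 Tgfbr2-/- ILC2p libraries, against 0.358%, 0.198% and 0% in the 3 ILC2 libraries. In WT ILC2p the share was 14.0% in replicate 1 of experiment 1 and 1.86%, 1.14% and 0.46% in the others, so the gaps differed between the genotypes too. The ILC2 libraries held 11161, 10431 and 11902 genes at 1 CPM or more, and the ILC2p libraries 6862, 6725, 9061 and 7489. Across 11469 genes, which are not independent replicates, log2 CPM correlated at r = 0.90 to 0.94 between ILC2 libraries and at r = 0.51 to 0.59 between ILC2p libraries. Correlations between an ILC2 and an ILC2p library spanned 0.47 to 0.59, so ILC2p libraries were about as unlike each other as they were unlike ILC2s. Calls that rest on ILC2p levels at or near 0 can be told below where levels are given. Genes named without levels may rest on such values too. Folds given below as at least a value allow for counting error only and not for such gaps.

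Neutrophil RNA set the groups far apart, which was known when the comparison was chosen and is given here as a description. The 43 neutrophil markers in the files summed to 118, 136 and 89.1 CPM in ILC2s and to 128600, 108000, 108900 and 124200 CPM in ILC2p. They took between 9.51% and 10.8% of all counts in the 4 ILC2p libraries, and no library came near the other group's range. The difference in mean log2 sum was -10.01. Of 40 neutrophil markers tested, 39 were lower in ILC2s, with a median log2 fold change of -13.22 against -0.27 for all 11469 genes tested, of which 4.6% were called lower. The most abundant was *S100a8*, a subunit of the calcium-binding protein calprotectin, at 0, 0 and 1.02 CPM in ILC2s and 29610, 23800, 24110 and 25690 CPM in ILC2p. *Ngp*, a granule protein of maturing neutrophils, had no read in any ILC2 library and stood at 19630, 15430, 15810 and 17480 CPM in ILC2p, at least 440000-fold lower in ILC2s (floor of 3 counts over the group, adjusted p = 9.83e-07).

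Granule genes of different stages of maturation were present together in ILC2p. *Mpo* and *Elane*, which encode myeloperoxidase and elastase of the early primary granules and were chosen after their values were seen, had no read in ILC2s. *Mpo* was at 6056, 8418, 4949 and 12600 CPM in ILC2p and *Elane* at 2093, 2528, 1733 and 2822 CPM. *Ltf*, which encodes lactoferrin of the later secondary granules, was at 8745, 6286, 7955 and 9237 CPM in ILC2p and at 0 in ILC2s. The lineage marker *Itgam* (CD11b), against which the sort selected, had no read in ILC2s and 192, 333, 431 and 382 CPM in ILC2p, at least 8610-fold lower in ILC2s (adjusted p = 0.000429).

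The same markers were far less abundant in WT ILC2p, where they summed to 1098 to 1966 CPM. For the 37 markers with a mean of at least 100 CPM in Tgfbr2-/- ILC2p, the WT mean was between 0.275% and 15.8% of it, with a median of 0.344%. *Ngp* and *Ltf* of the later granules stood near that median, at 0.315% and 0.313%, as did *S100a8* at 0.353%. Genes of the early granules, chosen after their values were seen, stood higher, at 9.52% for *Mpo*, 7.84% for *Elane*, 14.1% for *Prtn3* (proteinase 3) and 15.8% for *Ctsg* (cathepsin G). In bulk libraries, more cells of a type and more RNA per cell cannot be told apart. Where this RNA came from was not tested.

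The promoters of *Ngp*, *Camp* (cathelicidin) and *Ltf* are shown because these granule genes had very high levels in ILC2p and none or almost none in ILC2s. Each line gives the 250 bases before the RefSeq start (GRCm38.p6), 5′ to 3′ on the gene's strand, at chr9:110419558-110419807 (plus strand), chr9:109849457-109849706 (minus strand) and chr9:111019042-111019291 (plus strand). Capitals mark matches on either strand to TTGCNNAA, a form of the motif bound by C/EBP factors, which drive granulocyte genes.
*Ngp*: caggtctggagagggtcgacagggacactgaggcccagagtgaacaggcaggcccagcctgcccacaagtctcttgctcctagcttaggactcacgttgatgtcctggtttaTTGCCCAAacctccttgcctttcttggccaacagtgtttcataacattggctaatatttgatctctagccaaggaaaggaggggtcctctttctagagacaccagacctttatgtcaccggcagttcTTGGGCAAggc
*Camp*: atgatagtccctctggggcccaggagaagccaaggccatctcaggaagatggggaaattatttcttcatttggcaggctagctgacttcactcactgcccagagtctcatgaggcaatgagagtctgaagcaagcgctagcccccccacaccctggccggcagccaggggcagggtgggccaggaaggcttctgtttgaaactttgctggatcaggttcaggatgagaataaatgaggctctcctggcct
*Ltf*: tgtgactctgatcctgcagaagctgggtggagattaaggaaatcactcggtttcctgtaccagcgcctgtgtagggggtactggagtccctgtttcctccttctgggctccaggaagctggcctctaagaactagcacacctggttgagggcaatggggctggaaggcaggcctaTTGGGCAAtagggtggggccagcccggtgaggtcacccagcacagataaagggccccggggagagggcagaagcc
*Ngp* held 2 matches and *Ltf* 1, and *Camp* held none. Of 32851 RefSeq promoters of the same length, 9.56% held at least 1, so a match is a description of the letters and no evidence of a bound site.

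**Figure D1:**
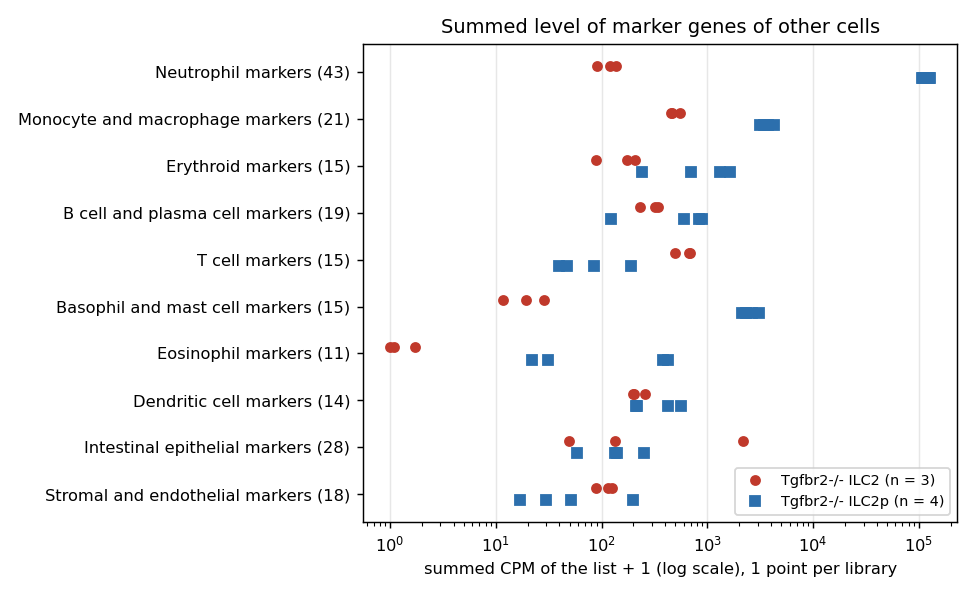
Summed CPM (plus 1, log axis) of the markers of 10 other cell types, with 1 red circle for each Tgfbr2-/- ILC2 library and 1 blue square for each Tgfbr2-/- ILC2p library, and the number of genes in brackets. Neutrophil markers lie between 108000 and 128600 CPM in ILC2p and between 89.1 and 136 CPM in ILC2s.

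Other myeloid markers were also higher in ILC2p. Basophil and mast cell markers summed to 10.6, 27.4 and 18.3 CPM in ILC2s and to 2140, 2632, 2344 and 3111 CPM in ILC2p (exact two-sided permutation test over libraries, p = 0.0286, the smallest that 35 arrangements allow). Of 7 tested, 6 were lower in ILC2s and 1 was higher, *Cyp11a1*, a steroid-making enzyme that lymphocytes can also express (mean 6.27 CPM against 0, adjusted p = 0.027). *Prss34*, a basophil protease, was at 0 in ILC2s and 823, 947, 901 and 929 CPM in ILC2p, at least 23200-fold lower in ILC2s (adjusted p = 2.82e-05). *Hdc*, which makes histamine, was at 3.25, 18.3 and 13.9 CPM against 929, 1235, 898 and 1203 CPM (log2 -6.60 ± 0.67, adjusted p = 0.00144). Every ILC2p library was above every ILC2 library for both genes. Monocyte and macrophage markers summed to 461, 545 and 450 CPM in ILC2s and to 3113, 3730, 3420 and 4314 CPM in ILC2p (exact permutation p = 0.0286). Their most abundant gene, the lysosomal protease *Ctsb*, was not called (adjusted p = 0.156), whereas *Ly6c2*, a marker of inflammatory monocytes, was at 3.54, 1.14 and 2.77 CPM in ILC2s against 730, 835, 862 and 787 CPM in ILC2p. Within that list 10 of 16 tested genes were lower in ILC2s and 2 were higher, against 4.6% and 9.13% of all genes. The 2 were *C1qa* and *C1qb*, which encode the complement protein C1q of tissue macrophages. Leaving out 1 library gave 6 to 10 lower, the fewest without the ILC2 library of experiment 2, and 1 to 3 higher.

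Eosinophil markers differed between ILC2p libraries, at 381, 21.2, 421 and 30.0 CPM, against 0.0966, 0 and 0.728 CPM in ILC2s (exact permutation p = 0.0286). Replicate 1 of each experiment was the high one, and *Prg2*, eosinophil major basic protein, followed the same order at 311, 0.311, 283 and 0.387 CPM. *Igj*, the joining chain of secreted antibodies, was high in the same replicates, at 575, 0.726, 557 and 0.968 CPM in ILC2p against 34.5, 27.1 and 39.4 CPM in ILC2s, and was not called (adjusted p = 0.525). T cell markers were at 669, 679 and 498 CPM in ILC2s and 38.9, 45.9, 84.8 and 190 CPM in ILC2p. These groups did not overlap, the exact permutation p on the log2 scale was 0.0571, and RPKM gave 0.0286. The most abundant T cell marker, *Zap70*, a kinase that ILCs use as well, was at 502, 514 and 393 CPM against 0.496, 1.04, 26.8 and 54.8 CPM (adjusted p = 0.086). Its call was lost in 4 of 7 fits that left out 1 library, with an adjusted p of up to 0.173. *Cd3g* was at 38.1, 27.9 and 24.3 CPM in ILC2s and at most 0.213 CPM in ILC2p (log2 8.09 ± 1.87, adjusted p = 0.0284, and 0.101 without ILC2 experiment 1 replicate 1). *Cd3d* and *Cd3e* were not called (adjusted p = 0.782 and 0.967).

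Intestinal epithelial markers stood apart in the ILC2 library of experiment 2, at 2153 CPM against 48.6 and 134 CPM in the other ILC2 libraries and 57.2 to 252 CPM in ILC2p (exact permutation p = 0.657). *Krt8*, a keratin of gut epithelium, was at 0.193, 10.5 and 577 CPM in ILC2s. The sums for erythroid, B cell, dendritic and stromal markers gave exact permutation p-values of 0.0571, 0.429, 0.286 and 0.286. Scaling and testing without the genes of these lists left 11323 genes, of which 1014 were higher and 442 lower in ILC2s, and all 105 named genes called that remained in this fit kept their direction and call. Genes of other cells that no list holds stayed in it, and their part was not tested.

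Of 11469 genes tested, 1575 (13.7%) were called, 1047 (9.13%) higher and 528 (4.6%) lower in ILC2s. The groups did not overlap for 1898 genes (16.5%) with ILC2s above and 914 (7.97%) with ILC2s below. To set the RNA of myeloid cells apart, a second scaling was set on a list of 37 genes of lymphoid cells, which assumes that these genes do not differ on balance between ILC2s and ILC2p. It shifted the median log2 fold change of all tested genes by -1.17, from -0.27 to -1.43. On that scale 956 genes (8.34%) were higher and 1643 (14.3%) lower, so the share of calls that were higher in ILC2s fell from 66.5% to 36.8%. Of the 1047 genes called higher, 955 were also called on the lymphoid scale and 6 had the other sign there, and the groups did not overlap for 1046. ILC2p had no read for 280 of the 1047 and 1 to 3 counts in all for another 291. All 528 genes called lower were also called on the lymphoid scale. Of these 528, 63 were on the lists of other cells and 39 of those on the neutrophil list. For 358 of the 528 every Tgfbr2-/- ILC2p library was also above every WT ILC2p library, as for 609 (5.31%) of all genes tested, and the 528 were chosen by their high level in the same Tgfbr2-/- ILC2p libraries. With 1 library left out, the number of calls lay between 1095 (without ILC2 experiment 1 replicate 1) and 2384 (without ILC2p experiment 2 replicate 1).

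Called genes outside the lists of other cells, without overlap and whose higher group had a median of 20 CPM or more, were ranked by the fitted log2 fold change, which for genes at 0 depends on the prior count. The 12 that ranked highest among those that rose had no read in the 4 ILC2p libraries. *Ret*, the receptor tyrosine kinase for the GDNF family of neurotrophic factors, was at 294, 362 and 351 CPM in ILC2s, at least 7720-fold higher than in ILC2p (adjusted p = 0.00134). *Dtx1*, which encodes Deltex-1 and is a target of Notch signaling, was at 478, 228 and 226 CPM, at least 7140-fold higher (adjusted p = 0.00263). *Dtx1* was also at 0 in the 4 WT ILC2p libraries. *Hey1*, another Notch target, was at 63.6, 74.1 and 29.4 CPM (at least 1280-fold, adjusted p = 0.0252). *Arc*, an immediate early gene, was at 59.3, 67.4 and 45.4 CPM, at least 1320-fold higher (adjusted p = 0.0246). The others were *Atp8a2*, *Il22*, *Gjb2*, *Igsf5*, *Gzmc*, *Hic1*, *Nsg2* and *Iltifb*, at least 1340-fold to 5640-fold higher with adjusted p-values from 0.00299 to 0.0249. *Iltifb* is a near-identical copy of *Il22*, so the division of reads between them is uncertain.

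The 12 that ranked highest among those that fell had no read in the 3 ILC2 libraries. *Clec12a*, an inhibitory lectin receptor of myeloid cells, was at 253, 277, 333 and 422 CPM in ILC2p, at least 8270-fold lower in ILC2s (adjusted p = 0.000296). *Sirpa*, the CD47 receptor of phagocytes, was at 0.993, 707, 216 and 153 CPM, with 1 library near 0 (at least 6930-fold lower, adjusted p = 0.027). *Tlr13*, a sensor of bacterial RNA in myeloid cells, was at 218, 356, 200 and 139 CPM (at least 5880-fold lower, adjusted p = 0.00126). *Tgfbi*, a matrix protein induced by TGF-β, was at 200, 111, 157 and 114 CPM (at least 3740-fold lower, adjusted p = 0.00259). The others were *Chil4*, *Il1f9*, *Cd300lb*, *Pi16*, *Ms4a3*, *B430306N03Rik*, *Mrgpra2b* and *Asprv1*, at least 3630-fold to 7700-fold lower. *Chil4* and *Mrgpra2b* have close copies with which they may share reads. *Clec12a*, *Sirpa*, *Tlr13*, *Cd300lb* and *Ms4a3* are known from myeloid cells, although no list of other cells held them.

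Of 26 transcription factors of ILC2 development tested, 3 were higher in ILC2s and none lower, a share of higher genes near the 9.13% of all genes, with a median log2 fold change of 1.16 against -0.27 for all genes. On the lymphoid scale 1 was higher and 3 were lower, with a median of -0.07 against -1.43, and leaving out 1 library gave 1 to 4 higher and 0 to 2 lower with TMM. The counts of the lists that follow stand against 9.13% higher and 4.6% lower among all genes with TMM, and 8.34% and 14.3% on the lymphoid scale. *Rora*, which encodes RORα, was at 1345, 2102 and 1562 CPM in ILC2s and 123, 414, 87.0 and 269 CPM in ILC2p. Every ILC2 library was above every ILC2p library (log2 2.80 ± 0.53, adjusted p = 0.0238), and the lymphoid scale kept the call (log2 1.61, adjusted p = 0.0653). *Gata3*, the defining factor, was at 2275, 2965 and 4218 CPM against 1218, 870, 913 and 1942 CPM. The groups did not overlap, by log2 1.26 ± 0.31 (adjusted p = 0.0354). The difference was log2 0.14 on the lymphoid scale (adjusted p = 0.74), and the call was lost without the ILC2 library of experiment 2 (adjusted p = 0.135). *Ets1*, which is itself on the list behind the lymphoid scale, was higher by log2 1.58 ± 0.38 (adjusted p = 0.0308), by 0.42 on the lymphoid scale (adjusted p = 0.467), and lost its call without the ILC2 library of experiment 2 (adjusted p = 0.105). *Id2*, which all ILCs need, was at 1276, 1653 and 1073 CPM in ILC2s and 1323, 1177, 1210 and 1647 CPM in ILC2p and was not called with TMM (adjusted p = 0.935), but was lower in ILC2s on the lymphoid scale (log2 -1.28, adjusted p = 0.00634). *Tcf7*, which encodes TCF-1 and was chosen after its values were seen, was at 66.3, 0.311, 39.5 and 0.271 CPM in ILC2p, with the same alternation between replicates as *Tgfbr1*, and was not called (adjusted p = 0.863).

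**Figure D2:**
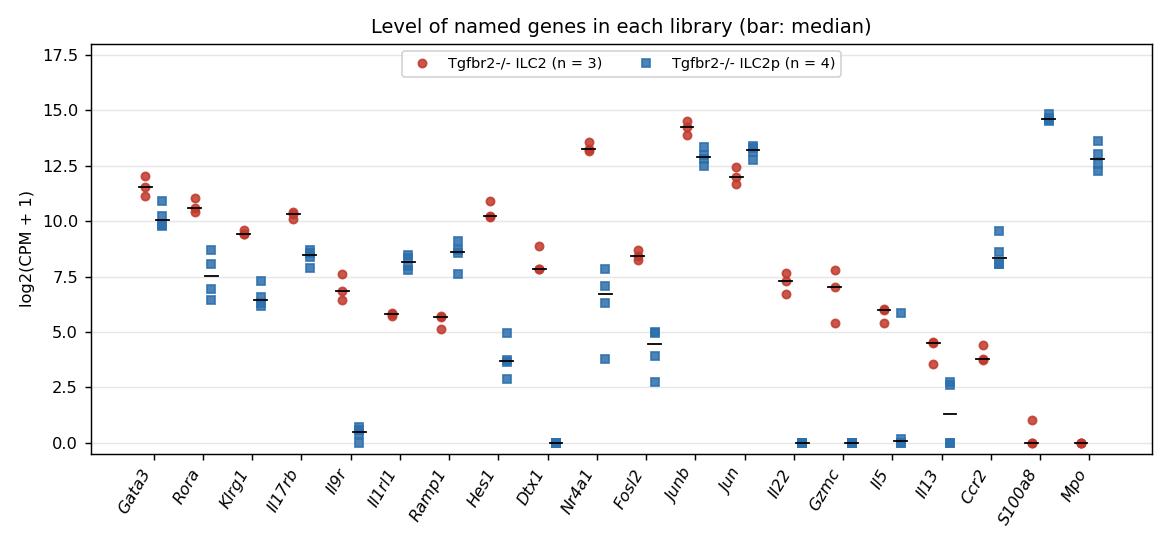
Level of 20 named genes as log2(CPM + 1) in each Tgfbr2-/- ILC2 library (red circles) and Tgfbr2-/- ILC2p library (blue squares), with black bars at the medians. *Il1rl1*, *Ramp1*, *Jun*, *Ccr2*, *S100a8* and *Mpo* lie lower in the 3 ILC2 libraries, and *Dtx1*, *Il22* and *Gzmc* lie at 0 in the 4 ILC2p libraries.

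The receptors of ILC2s moved in both directions, with 6 of 30 higher and 3 lower in ILC2s, against 9.13% and 4.6% of all genes. The balance turned on the lymphoid scale, where 3 were higher and 8 lower. *Il1rl1* (ST2) was at 51.1, 56.0 and 56.9 CPM in ILC2s and at 248, 220, 355 and 325 CPM in ILC2p. The groups were far apart, and ILC2s were 5.59-fold lower (log2 -2.48 ± 0.40, adjusted p = 0.014). The call held on the lymphoid scale (log2 -3.67, adjusted p = 0.00153) and in each of 7 fits that left out 1 library. *Ramp1*, part of the receptor for the neuropeptide CGRP, was also lower in ILC2s, at 52.0, 50.5 and 34.4 CPM against 373, 553, 193 and 411 CPM (log2 -3.17 ± 0.49, adjusted p = 0.0125). *Il17rb*, the IL-25 receptor chain, was higher at 1266, 1089 and 1360 CPM against 334, 420, 238 and 383 CPM (log2 1.75 ± 0.27, adjusted p = 0.0115), a call that the lymphoid scale did not keep (log2 0.59, adjusted p = 0.242). *Il17ra*, with which *Il17rb* pairs, was lower in ILC2s (log2 -1.61 ± 0.49, adjusted p = 0.077), and its call was lost in 5 of the 7 fits that left out 1 library, with adjusted p-values up to 0.257. *Il9r*, the receptor for a survival cytokine of ILC2s, was at 197, 114 and 87.5 CPM in ILC2s and at most 0.658 CPM in ILC2p (log2 8.37 ± 1.37, adjusted p = 0.0161). *Il2rb*, a chain of the IL-2 and IL-15 receptors, was at 676, 1115 and 456 CPM against 0.397, 23.5, 14.7 and 0.465 CPM (log2 6.14 ± 1.43, adjusted p = 0.0287).

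The regions before the starts of *Il1rl1* are shown because its product is the IL-33 receptor and its level was lower in the mature cells on both scales, as were those of *Ramp1* and *Il17ra*. Each line gives the 250 bases before a RefSeq start (GRCm38.p6, plus strand), at chr1:40429320-40429569 and chr1:40439379-40439628. Capitals mark matches on either strand to GATAA, a core motif of GATA factors such as GATA3.
*Il1rl1*, upstream start: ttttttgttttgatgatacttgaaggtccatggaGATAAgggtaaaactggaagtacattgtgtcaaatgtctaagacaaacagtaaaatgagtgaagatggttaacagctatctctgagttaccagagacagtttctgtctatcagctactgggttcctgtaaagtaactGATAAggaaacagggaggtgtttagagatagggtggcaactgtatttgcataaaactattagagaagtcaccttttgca
*Il1rl1*, downstream start: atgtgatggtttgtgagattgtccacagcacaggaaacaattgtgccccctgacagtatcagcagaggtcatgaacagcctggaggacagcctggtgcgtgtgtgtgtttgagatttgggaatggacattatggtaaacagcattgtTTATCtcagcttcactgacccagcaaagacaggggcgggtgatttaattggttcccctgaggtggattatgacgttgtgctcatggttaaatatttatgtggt
The upstream window held 2 matches and the downstream window 1. The motifs are not separated between these windows and those of the granule genes, since the upstream window also held 1 match to TTGCNNAA and *Ltf* 1 to GATAA. At least 1 match is in 22.6% of the 32851 RefSeq promoters of this length. The counts in the files are per gene and do not tell the starts apart.

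Of 25 tested type 2 cytokines and other secreted effectors, 7 were higher and 3 lower in ILC2s, with a median of 2.65, and on the lymphoid scale 5 were higher and 5 lower. Leaving out 1 library moved the number higher with TMM between 5 and 12 and the number lower between 1 and 5. Those higher were *Il6*, *Il2*, *Csf2*, *Areg*, *Hbegf*, *Lif* and *Cxcl1*, which are growth factors, chemokines and cytokines of activated cells and not the type 2 cytokines proper. *Hbegf*, a ligand of the EGF receptor, was at 47.2, 67.2 and 69.4 CPM in ILC2s and at most 0.341 CPM in ILC2p (log2 8.77 ± 1.70, adjusted p = 0.024). *Il2* was at 25.3, 20.3 and 26.6 CPM and at 0 in ILC2p, at least 554-fold higher (adjusted p = 0.027). In the WT comparison its log2 fold change, or its bound, was 3.91. *Il5* was at 41.4, 63.2 and 65.5 CPM in ILC2s and at 0, 0, 57.1 and 0.116 CPM in ILC2p. The third ILC2p library lay within the ILC2 range and the rest near 0, so *Il5* was not called (adjusted p = 0.857). *Il13* was at 21.9, 22.7 and 10.7 CPM against 0, 0, 5.15 and 5.77 CPM and was not called either (adjusted p = 0.653). *Alox5*, the enzyme that starts leukotriene synthesis, was lower in ILC2s, at 25.2, 0.678 and 9.17 CPM against 633, 328, 385 and 273 CPM (log2 -5.20 ± 1.13, adjusted p = 0.0269). *Ccl4* and *Cxcl2* were lower too (adjusted p = 0.0454 and 0.0347), and these calls were lost in 3 and 2 of the 7 fits that left out 1 library, at adjusted p-values up to 0.233 and 0.153. *Alox5* and *Cxcl2* are also expressed by neutrophils, whose markers were high in the same libraries, and the part of that RNA was not tested.

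Homing receptors and integrins were higher for 5 and lower for 3 of 30 tested genes, against 9.13% and 4.6% of all genes. On the lymphoid scale the balance turned to 3 higher and 8 lower, and leaving out 1 library moved the number higher with TMM between 1 and 11. *Ccr2*, a receptor used for exit from the marrow, was at 20.2, 12.7 and 12.5 CPM in ILC2s and 270, 386, 265 and 756 CPM in ILC2p (log2 -4.88 ± 0.58, adjusted p = 0.00315). The groups lay far apart for this gene, which monocytes also express. *Itgb2*, the β2 integrin chain that pairs with CD11b, was lower in ILC2s (log2 -2.33 ± 0.46, adjusted p = 0.0249). *Cxcr3*, *Itgav* and *S1pr1* were called higher with adjusted p-values of 0.0688, 0.0705 and 0.0587, and each of these calls was lost in 3 or 4 of the 7 fits that left out 1 library, at adjusted p-values up to 0.196, 0.217 and 0.168.

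Among genes of the TGF-β pathway, 6 of 31 were higher and 1 was lower in ILC2s, and 5 and 2 on the lymphoid scale. The 6 were the coreceptor *Tgfbr3*, the type II BMP receptor *Bmpr2*, the inhibitory *Smad7*, the ubiquitin ligases *Smurf1* and *Smurf2*, which degrade receptors and Smads, and the decoy receptor *Bambi*. *Bambi* was at 116, 105 and 140 CPM in ILC2s and at 0, 0, 3.45 and 0.232 CPM in ILC2p (log2 6.92 ± 1.98, adjusted p = 0.0613), and its call was lost in 4 of the 7 fits that left out 1 library, at adjusted p-values up to 0.177. *Smurf2* was at 12.9, 11.5 and 17.9 CPM against at most 0.213 CPM (log2 7.26 ± 1.85, adjusted p = 0.0379), and lost its call in 2 of those fits (up to 0.117). *Smurf1* lost it without ILC2 experiment 1 replicate 1 (adjusted p = 0.101). Leaving out 1 library moved the count of higher genes on this list between 1 and 11. *Thbs1*, thrombospondin-1, which activates latent TGF-β, was lower in ILC2s at 0.0966, 0.0925 and 4.37 CPM against 147, 300, 144 and 140 CPM (log2 -7.05 ± 1.68, adjusted p = 0.03).

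Of 28 genes of early progenitors and of Notch signaling, 3 were higher in ILC2s, a share near the 9.13% of all genes, and 4 were lower. On the lymphoid scale 3 were higher and 6 lower, and leaving out 1 library moved the number higher with TMM between 3 and 8. The 3 were *Hes1*, *Dtx1* and *Mecom*, a factor of blood stem cells at 2.58, 1.82 and 4.73 CPM in ILC2s and 0 in ILC2p (adjusted p = 0.0263). *Hes1*, a repressor that Notch induces, was at 1943, 1191 and 1155 CPM in ILC2s and 6.26, 12.4, 29.9 and 11.4 CPM in ILC2p, 89.9-fold higher (log2 6.49 ± 0.60, adjusted p = 0.000785). The receptors *Notch1* (log2 -0.94) and *Notch2* (log2 -0.13) were not called. *Myb*, a factor of blood progenitors, was at 0.0322, 0 and 0.218 CPM in ILC2s against 152, 68.9, 35.6 and 134 CPM (log2 -10.37 ± 1.81, adjusted p = 0.0208). *Lmo2*, of the same stage, was at 0, 0 and 0.655 CPM against 90.2, 81.7, 58.8 and 81.1 CPM (log2 -8.65 ± 2.24, adjusted p = 0.0405, and 0.104 without ILC2 experiment 1 replicate 1). *Gata2* and *Cd34* were also lower (adjusted p = 0.0284 and 0.0335), each with 1 ILC2p library under 1 CPM, and *Gata2* no longer passed the filter in 3 of the 7 fits that left out 1 library. *Cd34* lost its call in 6 of them, in 3 by the filter and in 3 with adjusted p-values up to 0.115. *Gata2* is also on the basophil and mast cell list, whose sum was higher in the same ILC2p libraries. *Mpo*, *Elane* and other myeloid genes were high there as well, and the part of such RNA was not tested. In the WT comparison the log2 fold change, or its bound, was -8.51 for *Myb*, -4.53 for *Lmo2*, 2.40 for *Gata2* and 0.04 for *Cd34*. *Zbtb16*, which encodes PLZF of ILC precursors and was chosen after its values were seen, was at 12.4, 36.1 and 11.6 CPM in ILC2s and 82.0, 101, 25.2 and 123 CPM in ILC2p (adjusted p = 0.268).

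The AP-1 and immediate early genes, which cells switch on within minutes of a stimulus or of tissue dissociation, were higher for 12 and lower for 3 of 37 tested, against 9.13% and 4.6% of all genes. On the lymphoid scale the balance turned to 8 higher and 11 lower. *Nr4a1*, which encodes the nuclear receptor NUR77, was at 9119, 12270 and 9915 CPM in ILC2s and 78.2, 12.96, 135 and 227 CPM in ILC2p (log2 6.45 ± 0.82, adjusted p = 0.00459). *Fosl2* was at 306, 415 and 341 CPM against 5.66, 14.3, 30.0 and 30.8 CPM (log2 4.05 ± 0.65, adjusted p = 0.014). Both calls held on the lymphoid scale (adjusted p = 0.00335 and 0.0275). *Nr4a3*, a related receptor, was at 77.2, 126 and 62.2 CPM in ILC2s and at 0, 0, 0 and 0.0387 CPM in ILC2p (adjusted p = 0.00579). *Junb* was the most abundant, at 19550, 23590 and 15140 CPM against 7077, 8187, 5750 and 10430 CPM (log2 1.21 ± 0.21, adjusted p = 0.0212), and on the lymphoid scale its difference was 0.05 (adjusted p = 0.856). *Jun* went the other way, at 4029, 3250 and 5660 CPM against 10230, 8851, 6982 and 10850 CPM (log2 -1.19 ± 0.22, adjusted p = 0.0238), as did *Zfp36* (log2 -0.74 ± 0.16, adjusted p = 0.0269). *Fos* was not called with TMM (adjusted p = 0.108). By the methods gut tissue was digested with enzymes and marrow was flushed, and the part of isolation in these differences was not tested.

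Genes of other innate lymphoid cells were mostly higher in gut ILC2s where they were called. Among all calls 66.5% were higher in ILC2s with TMM and 36.8% on the lymphoid scale. T cell markers were also higher in the same ILC2 libraries, although the sort selected against CD3 and CD5. *Cd4*, called higher, is on both the ILC3 and the T cell list. The part of T cell RNA was not tested. Of 24 genes of ILC1s and NK cells, 8 were higher and 2 lower, and 8 and 3 on the lymphoid scale. *Gzmc*, a granzyme, was at 128, 221 and 41.6 CPM in ILC2s and 0 in ILC2p, at least 3000-fold higher (adjusted p = 0.0173), and *Tbx21*, which encodes T-bet, was at 44.3, 91.8 and 17.2 CPM against 0, 0, 0 and 0.0387 CPM (adjusted p = 0.0177). *Tyrobp* and *Fcgr3*, an adaptor and an Fc receptor of NK cells that myeloid cells share, were lower. *Tyrobp* was at 14.3, 8.04 and 6.62 CPM against 806, 728, 642 and 795 CPM (log2 -6.35 ± 0.45, adjusted p = 0.000175). Of 21 genes of ILC3s, 6 were higher and 1 lower, 5 and 2 on the lymphoid scale, and 4 to 9 higher when 1 library was left out. *Il22*, the ILC3 cytokine that acts on epithelium, was at 157, 204 and 104 CPM in ILC2s and 0 in ILC2p, at least 3570-fold higher (adjusted p = 0.00814). *Il17a* and *Il17f* were at 0 in ILC2p as well, and at 0.925 to 6.83 CPM and 2.98 to 30.5 CPM in ILC2s (adjusted p = 0.0284 and 0.0348). The call of *Il17f* was lost without ILC2 experiment 1 replicate 1 (adjusted p = 0.11). *Gda*, guanine deaminase, was lower in ILC2s (log2 -5.19 ± 0.75, adjusted p = 0.00873).

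Of 22 checkpoint and costimulatory genes, 7 were higher in ILC2s and none lower, with a median of 1.72, and on the lymphoid scale 6 were higher and 2 lower. *Tnfrsf18*, which encodes GITR, was at 684, 1018 and 958 CPM against 148, 283, 257 and 314 CPM (log2 1.73 ± 0.32, adjusted p = 0.0238), and 0.54 on the lymphoid scale (adjusted p = 0.348). *Ctla4*, an inhibitory receptor, was at 19.2, 38.3 and 16.9 CPM in ILC2s and at 0 in ILC2p, at least 570-fold higher (adjusted p = 0.0278). *Tigit*, *Tnfrsf9*, *Tnfsf4*, *Tnfsf8* and *Cd40lg* completed the 7, and *Tnfsf4* and *Cd40lg* had no read in ILC2p. *Pdcd1* (PD-1), chosen after its values were seen, was at 168, 393 and 328 CPM in ILC2s and at 53.7, 0.207, 0.468 and 0.31 CPM in ILC2p, and was not called (adjusted p = 0.258). T cell markers moved the same way in these libraries, with 4 of 11 tested called higher in ILC2s and none lower. Leaving out 1 library gave 1 to 5 higher. Whether T cell RNA had a part in the checkpoint calls was not tested.

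**Figure D3:**
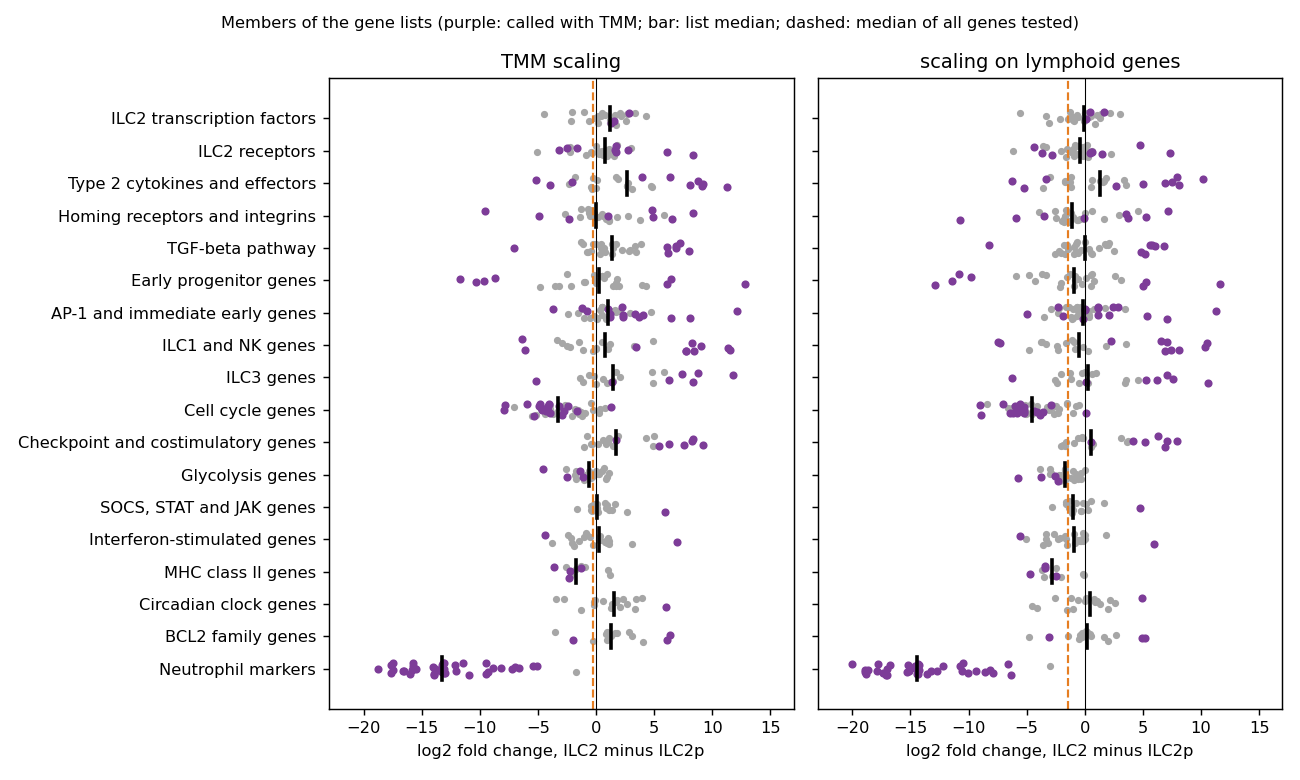
Log2 fold change (ILC2 minus ILC2p) of each tested member of 17 gene lists and the neutrophil list, with TMM scaling (left) and with scaling on lymphoid genes (right). Purple points were called with TMM, black bars are list medians, dashed lines the medians of all genes tested (-0.27 and -1.43), and genes with no read in 1 group are drawn at their bound. The cell cycle and neutrophil medians lie left of the dashed line in both panels, at -3.28 and -13.22 with TMM.

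Of 50 cell cycle genes, 18 were lower in the gut cells, 1 was higher and 31 were not called, against 4.6% lower and 9.13% higher among all genes. Their median was -3.28 against -0.27 for all genes. *Ccnb1*, the mitotic cyclin B1, was at 0.29, 0.185 and 0.146 CPM in ILC2s and at 47.1, 52.1, 8.73 and 88.1 CPM in ILC2p (log2 -7.92 ± 1.60, adjusted p = 0.0249). *Kif11*, a motor of the mitotic spindle, was at 5.18, 0.0616 and 0.728 CPM against 122, 141, 114 and 90.8 CPM (log2 -5.95 ± 1.52, adjusted p = 0.0389, and 0.145 without the ILC2 library of experiment 2). For both genes every ILC2p library lay above every ILC2 library. *Mki67* (log2 -4.34) and *Top2a* (log2 -4.64), which mark dividing cells, and the replication genes *Mcm2*, *Mcm5* and *Mcm7* (log2 -2.43 to -2.93) were among the 18. The 1 gene higher in ILC2s was *Ccnd2*, cyclin D2, at 946, 956 and 973 CPM against 411, 329, 343 and 350 CPM (log2 1.32 ± 0.22, adjusted p = 0.0167), and 0.14 on the lymphoid scale (adjusted p = 0.76). On that scale 27 of the 50 were lower and none higher. The same list had a median of -1.06 in the WT comparison, where 1 of 50 was called. Leaving out 1 library moved the number lower between 11 and 21. Cells that divide include myeloid precursors, whose genes were high in the same ILC2p libraries, and their part was not tested.

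Of 23 glycolysis genes, 4 were lower in ILC2s and none higher, and 9 were lower on the lymphoid scale. *Slc2a3*, a glucose carrier, was at 58.3, 89.3 and 88.9 CPM against 222, 582, 416 and 491 CPM (log2 -2.54 ± 0.44, adjusted p = 0.0208), and *Pkm*, pyruvate kinase, was at 865, 1111 and 769 CPM against 2524, 1381, 1728 and 2006 CPM (log2 -1.15 ± 0.25, adjusted p = 0.0269). *Ldha*, lactate dehydrogenase A, was not called (adjusted p = 0.993). The others were *Gpi1* and *Slc16a3*. In the WT comparison none of the 23 was called, their median was 0.33, and *Pkm* was at log2 0.67. Neutrophil and monocyte markers were high in the same Tgfbr2-/- ILC2p libraries, and the part of their RNA in these calls was not tested. Of 11 MHC class II genes, 4 were lower and none higher, with 7 lower on the lymphoid scale and 1 to 5 lower with TMM when 1 library was left out. *H2-Aa* was at 53.9, 54.7 and 65.8 CPM in ILC2s and 299, 172, 237 and 354 CPM in ILC2p (log2 -2.28 ± 0.43, adjusted p = 0.0238). The calls of *H2-Ab1* and *Cd74* were lost without ILC2 experiment 1 replicate 1 (adjusted p = 0.122 and 0.117), and that of *H2-DMb1* in 5 of the 7 fits (up to 0.288). In the WT comparison none of the 11 was called, with a median of -0.30. Monocyte markers were also higher in the same ILC2p libraries. On the dendritic list 2 of 8 tested genes, *Irf8* and *Cd209a*, were lower in ILC2s and 1 was higher. *Irf8* lost its call without ILC2 experiment 1 replicate 1 (adjusted p = 0.159) or the ILC2 library of experiment 2 (0.139). The part of such cells was not tested.

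Of 19 SOCS, STAT and JAK genes, 1 was higher, *Socs6*, and of 25 interferon-stimulated genes 1 was higher, *Mx2*, and 1 lower, *Ifi27l2a*. On the lymphoid scale each list had 1 gene higher and 2 lower, and leaving out 1 library gave 1 to 3 higher on each with TMM and 1 to 3 lower on the interferon list. Of 18 clock genes 1 was higher, *Per2*, with an adjusted p of 0.0284 that rose to 0.101 without ILC2 experiment 1 replicate 1, and leaving out 1 library gave 0 to 3 higher. Among 16 genes of the BCL2 family, *Bcl2l2* and *Bmf* were higher and *Mcl1* lower, the last pair with calls that were lost in 3 and 4 of the 7 fits (up to 0.145 and 0.227), and the number higher was 1 to 4 in these fits. *Bcl2l2* had no read in ILC2p. *Bcl2*, which keeps lymphocytes alive, was at 612, 560 and 567 CPM against 289, 93.6, 247 and 302 CPM and was not called (adjusted p = 0.104).

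The gut to marrow contrast was then set beside that of the 4 WT ILC2 and 4 WT ILC2p libraries, which share no library with it. In WT cells 302 of 12806 genes (2.36%) were called, 211 (1.65%) higher and 91 (0.711%) lower in ILC2s, and the difference between the genotypes' contrasts was called for 174 (1.36%), of which 83 (0.648%) were more positive and 91 (0.711%) more negative in Tgfbr2-/- cells. With 1 of the 15 libraries left out, these 174 became 57 to 497, and of 25 named genes called for the difference 4 stayed called in each of the 15 fits, *Il9r*, *Pkm*, *Hdc* and *Mrgpra2b*. Of the genes called higher in Tgfbr2-/- ILC2s and fitted in both genotypes, 709 of 1046 had the same direction in WT cells, and 376 of 526 of those called lower. Only 134 and 69 of them were also called in that direction in WT cells. The share over all genes fitted is not given here, so these counts are a description. *Il1rl1* fell in both genotypes, by 2.48 and by 2.72 on the log2 scale, and the difference of 0.32 was not called (adjusted p = 0.981). It was at 943 to 1216 CPM in WT ILC2p and 71.3 to 218 CPM in WT ILC2s, so that each Tgfbr2-/- library lay below each WT library of its cell type. Neutrophil markers took 9.51% to 10.8% of counts in Tgfbr2-/- ILC2p and 0.1% to 0.211% in WT ILC2p. The part of this RNA in the lower CPM of Tgfbr2-/- ILC2p was not tested. *Gata3*, *Klrg1*, *Il5* and *Il13* were not called for a difference (adjusted p = 0.274, 1, 0.74 and 0.745).

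Of the members of the 17 lymphoid and general lists, 416 were fitted in both genotypes, called or not, and 288 of these had the same sign in WT and Tgfbr2-/- cells and 257 the larger size in Tgfbr2-/- cells. The share over all genes is not given for these counts, which are a description. Fitted values came from the 7 libraries for Tgfbr2-/- and from the fit over 15 for WT. Gaps were more common in Tgfbr2-/- ILC2p, and their part in the sizes was not tested. *Il9r* was called for the difference (log2 6.27, adjusted p = 0.0101), with 17.9, 42.6, 60.1 and 71.9 CPM in WT ILC2p against at most 0.658 CPM in Tgfbr2-/- ILC2p, the group with more gaps. *Tnfrsf18* (1.68, adjusted p = 0.0804) and *Ltb*, the membrane anchor of lymphotoxin and on the list behind the lymphoid scale (1.37, adjusted p = 0.0971), were more positive, with calls lost in 9 and 11 of the 15 fits, and *Pkm* (-1.73, adjusted p = 0.0149) was more negative. These values are with TMM. On the lymphoid scale the median difference of all genes went from -0.04 to -1.04, with 70 genes more positive and 362 more negative. Differences of single genes on that scale are not given here. *Hes1* was not called for the difference (2.46, adjusted p = 0.101). Among the 5 called genes with the most negative difference were *Ltf* and *Trem1* of the neutrophil list and *Tgfbi*, all 3 at 0 in Tgfbr2-/- ILC2s. In WT ILC2s the level of each came almost wholly from a single library. *Ltf* was at 3.72 CPM in experiment 2 replicate 1. *Trem1* was at 2.79 CPM and *Tgfbi* at 34.1 CPM in experiment 2 replicate 2, with at most 0.113 CPM in the others. Without the gene's own high library the adjusted p was 1 for *Ltf* and for *Trem1*. It was 0.0363 for *Tgfbi*, which stayed called while its log2 difference went from -18.56 to -10.90. The call of *Tgfbi* was lost without any 1 of the 3 Tgfbr2-/- ILC2 libraries (adjusted p = 0.14 to 0.177), as was that of *Trem1* (0.107 to 0.143). Monocyte markers summed to 1902 CPM in experiment 2 replicate 2, against 264 to 534 CPM in the other WT ILC2 libraries, and neutrophil markers to 192 against 56.3 to 69.4 CPM. Of the 40 neutrophil markers, 14 were called for a more negative difference, 10 without experiment 2 replicate 2 of WT ILC2s and 7 without replicate 1 or replicate 2 of experiment 1 of Tgfbr2-/- ILC2s, and *Hdc* (-7.53, adjusted p = 0.0103) and *Ly6c2* (-5.54, adjusted p = 0.0315) of the basophil and monocyte lists were as well.

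**Figure D4:**
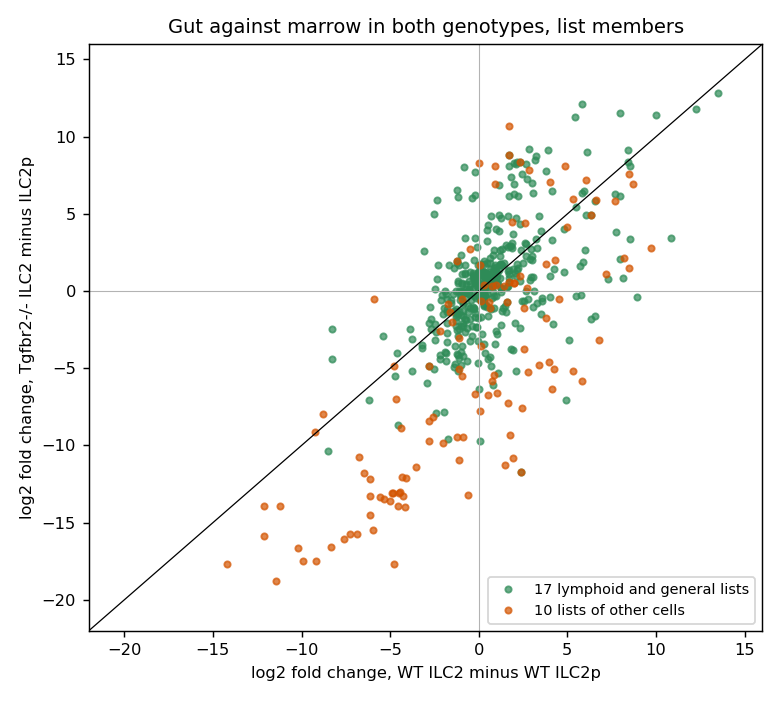
Log2 fold change between gut and marrow in WT cells (x axis) and in Tgfbr2-/- cells (y axis) for list members fitted in both genotypes, with genes with no read in 1 group at their bound and the diagonal drawn. Green points are members of the 17 lymphoid and general lists and orange points members of the 10 lists of other cells, of which 89 of 121 have the larger size in Tgfbr2-/- cells. The share over all genes is not given, so this count is a description.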

How the data were processed

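RNA-seq reads were mapped by the authors to the mouse genome (mm9) with TopHat, and the submitters' processing notes name Bowtie2. For each RefSeq gene the authors deposited a raw count, made with the rpkmforgenes script, and RPKM, normalized to the mapped reads given in each file's header. Strand is not given in the sources used here, so genes that overlap on the other strand are uncertain. Each file held 24690 entries for 24089 gene symbols, and 205 entries joined genes that share reads.

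Groups, experiments and replicates came from the labels. The ILC2 library of experiment 2 carries no replicate number and was numbered in accession order. The quasi-likelihood test of edgeR 4.0.16 (R 4.3.3) was run after TMM scaling and filterByExpr on the 7 Tgfbr2-/- libraries without covariates. The difference between genotypes was tested as an interaction in 1 fit over all 15 libraries, whose TMM factors also set the printed CPM. The thresholds, adjusted p under 0.1 and fold over 1.5, follow the study's methods. A gene with no read in a group was given a bound from 3 counts over that group. In single libraries total counts ran from 10957021 to 32114265. These bounds cover counting error only.

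The named genes were *Tgfbr2*, *Tgfbr1*, the 12 non-overlapping called genes with the largest change in each direction (median of at least 20 CPM, outside the lists of other cells), from each biological list the 4 called members with the largest change per direction and the 2 most abundant, from each list of other cells the 3 most abundant, and for the genotypes the 5 with the largest called difference per direction with *Il1rl1*, *Gata3*, *Il5*, *Il13* and *Klrg1*. Other list members were named to complete a count, and some genes that the rule names are not reported here. The members of the comparison and the lists were chosen with earlier results of these data known. The alternatives were DESeq2 1.42.0, limma 3.58.1 (voom, and log2 of RPKM + 1), other scalings and filters, a replicate block, single experiments and leaving out each library. The fit with the ILC2p libraries of experiment 2 alone, and leaving out libraries for the difference between genotypes, were chosen after seeing the data. The main fit and the fit of the difference between genotypes, both edgeR with TMM, were first checked on simulated data. The alternatives were not. Promoters came from RefSeq (GRCm38.p6).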

Additional observations from a re-analysis of the deposited data

Results flagged for a closer look

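The levels of some genes in a group of 4 libraries had 1 library far from the others, measured as the gap to the nearest library divided by the group's range and set against Dixon's critical value for 4 samples. Chance marks about 1 in 20 groups. In Tgfbr2-/- ILC2p the ratio was 0.897 for *Asprv1*, 0.859 for *Selplg*, 0.933 for *Bambi*, 0.951 for *Thbs1*, 0.896 for *Lilrb4*, 0.882 for *F13a1*, 0.966 for *Cd79b*, 0.98 for *Cd28*, 0.969 for *Epx*, 0.993 for *Krt8*, 0.979 for *Aldh3b2*, 0.998 for *Il5*, 0.996 for *Cd3d*, 0.996 for *Il18r1* and 0.995 for *Pdcd1*. *Il5* and *Il18r1* had the same high library, replicate 1 of experiment 2, at 57.1 and 32.1 CPM, whereas *Cd3d* was high in replicate 2 of experiment 1 at 44.2 CPM and *Pdcd1* in replicate 1 of experiment 1 at 53.7 CPM. In WT ILC2s the ratio was 0.997 for *Tgfbi*, 0.986 for *Klrg1* and 1.0 for *Ltf*, *Trem1* and *Cd300ld*, and in WT ILC2p it was 0.975 for *Kcnip3* and 0.985 for *Il5*.

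The gut to marrow contrast was called as different between the genotypes, by the interaction in 1 fit over 15 libraries, for the named genes that follow. Log2 values are positive where the contrast was more positive in Tgfbr2-/- cells. Of the 25 genes, 4 stayed called in every fit that left out 1 library, *Il9r*, *Pkm*, *Hdc* and *Mrgpra2b*. *Kcnip3* was called in 3 and *Ltb* in 4 of the 15 such fits. For immune and metabolic genes it was 6.27 for *Il9r*, 1.37 for *Ltb*, 1.68 for *Tnfrsf18*, 8.34 for *Socs6*, -1.73 for *Pkm*, -7.19 for *Gda*, -6.26 for *Tyrobp* and -6.77 for *Fcgr3*. For genes on the lists of other cells it was -10.07 for *Ngp*, -15.65 for *Ltf*, -15.34 for *Trem1*, -5.54 for *Ly6c2*, -7.53 for *Hdc* and -9.85 for *Igj*. For others that fell it was -14.0 for *Tlr13*, -13.22 for *Mrgpra2b*, -18.56 for *Tgfbi*, -11.83 for *Thbs1*, -14.24 for *Cd300ld* and -14.09 for *Aldh3b2*. For others that rose it was 13.64 for *Kcnip3*, 12.39 for *Cbx2*, 11.38 for *Gstm5*, 10.8 for *4921511C10Rik* and 10.31 for *Kcnk1*. Of these 25 genes, *Tlr13*, *Ngp*, *Trem1*, *Cd300ld* and *Aldh3b2* had an adjusted p of 1 without WT ILC2 experiment 2 replicate 2, and *Ltf* without replicate 1 of that experiment. Fitted values beyond about 9 in size come from genes at or near 0 in at least 1 group and depend on the prior count.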

How the results depend on the processing

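Against 1575 genes called in the 7 libraries (1047 higher and 528 lower in ILC2s), a minimum of 10 counts in every library left 389 (137 and 252) of 4270 genes tested. The replicate block left 183 (33 and 150), experiment 2 alone 44 (8 and 36), and experiment 1 alone gave 2838 (2332 higher). The ILC2p libraries of experiment 2 against all 3 ILC2 libraries, chosen after seeing the data, gave 2552 (1617 and 935). Scaling on lymphoid genes gave 2599 (1643 lower), DESeq2 1103 lower, limma on log2(RPKM + 1) 1717 higher and limma-voom 1607 higher. Leaving out 1 library gave 1095 to 2384 calls, 807 to 1775 higher and 288 to 609 lower, the lowest without ILC2 experiment 1 replicate 1 and the highest total without ILC2p experiment 2 replicate 1. Deviations of same-numbered ILC2 and ILC2p libraries correlated at r from -0.023 to 0.084. Those of same-numbered ILC2p libraries between the experiments correlated at r = -0.011 over all genes. The numbers were not taken to pair samples, and tests other than the replicate block treat the libraries as separate. However, some genes (*Prg2*, *Igj*, *Tgfbr1*, *Tcf7*) were high in both replicates 1 of ILC2p. Dendritic marker sums were lower there, at 210 and 217 CPM against 424 and 562 CPM in replicates 2. Neutrophil sums did not follow the numbers. Gaps enter these correlations, so they do not decide whether same-numbered ILC2p libraries share cells, which was not tested. Fewer genes were tested under the 10-count minimum, and the cause of the other changes was not tested.

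The 174 differences between genotypes (83 more positive, 91 more negative) were 1224 with DESeq2 (647 and 577), 89 with 10 counts in every library (32 and 57) and 432 on the lymphoid scale (362 more negative), and library size alone gave 145 more positive. Leaving out 1 of the 15 libraries, chosen after seeing the data, gave 57 to 497 (24 to 354 more positive, 32 to 143 more negative), the fewest without ILC2 experiment 1 replicate 2 and the most without ILC2p experiment 2 replicate 1, both Tgfbr2-/-. The T cell sum differed by 2.88 (log2) in RPKM, with an exact permutation p of 0.0286. *Tgfbr2*, not called, turned to -0.38 in experiment 2 and -0.69 on the lymphoid scale. *Tgfbr1*, not called, turned to 0.44 in experiment 2, 0.13 with library size, 0.31 with the upper quartile, 0.57 with limma on RPKM, 2.22 with voom, 3.68 under the block, and 0.48 and 0.25 without ILC2p replicate 1 of experiment 1 or 2, within -0.61 to 0.48 over the fits that left out 1 library. *Itgb7* turned to -0.10 on the lymphoid scale. Of 130 named genes called, 98 stayed called in each of the 7 fits that left out 1 library. Under the replicate block 45 of the 130 kept their call and 85 lost it. Gaps in the ILC2p libraries limit the genes near 0 there.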
